A study of Mus musculus with 8 samples.

Results

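The Ms4a genes encode small proteins that cross the cell membrane several times, and 8 of them (Ms4a4b, Ms4a4c, Ms4a4d, Ms4a6b, Ms4a6c, Ms4a6d, Ms4a7 and Ms4a8a) were followed here in mouse blood monocytes. They were found by symbol, as the 15 probe sets of the microarray that carry exactly 1 of these names, and the brightest probe set of a gene, by its mean over all 8 arrays, gave the gene's level. The members are 8 of 18193 genes measured this way. Of the members, 7 had a mean above the background level of 6.98 (log2), the 95th percentile of 114 smell, taste and keratin-associated genes taken as silent in blood, and Ms4a4d was below it in every group.

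Monocytes of male C57BL/6 mice were sorted from blood 4 days after an intravenous injection of fluorescent latex beads of 1 µm, and divided by whether they held beads, so cells without beads also came from injected mice per the design text. The 8 arrays form 4 groups of 2 by the labels: Gr1 low (nonclassical) monocytes with beads, Gr1 low monocytes without beads, Gr1 high (classical) monocytes with beads, and Gr1 high monocytes without beads. They are called Gr1lo and Gr1hi below, and the arrays of a group are biological replicates per the design text; how many mice or cells stand behind an array is not stated in the labels. The descriptions differ on clodronate liposomes, an agent that removes monocytes and macrophages: the design text puts their injection 3 days before the beads for the whole study, whereas the treatment protocol uses them only to label the Ly-6C hi cells. Under the second reading subset and pretreatment cannot be told apart.

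In background, MS4A proteins sit in membranes beside receptors and alter how these signal. The best known are Ms4a1, the B cell antigen CD20, and Ms4a2, the beta chain of the high-affinity IgE receptor on mast cells and basophils. Several others are used by myeloid cells: human MS4A4A is found with Dectin-1 and is linked to TREM2 in macrophages, and mouse Ms4a6d works with the macrophage receptor VSIG4. Classical monocytes give rise to nonclassical ones in the mouse, which patrol the vessel wall.

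The RefSeq table places the 8 members on mouse chromosome 19, in a row of 21 Ms4a genes that runs between Ms4a10 and Ms4a3. Ms4a7, Ms4a4c, Ms4a4b, Ms4a6c, Ms4a6b, Ms4a4d and Ms4a6d lie close together, and Ms4a8a lies apart from them with other Ms4a genes between. The 250 bases before the start of Ms4a6c and Ms4a6b shared a stretch with 152 identical bases in 182 aligned columns (83.5%), and those of Ms4a4c and Ms4a4b one with 114 of 128 (89.1%). The other 25 of 27 pairs of promoters of different members had at most 23 identical bases in 30 columns. These pairs are shown because their promoters were the most alike of those compared. Sequences are from RefSeq (GRCm38.p6), all on the plus strand, with the aligned stretch of the pair in capitals: chr19:11469118-11469367 for Ms4a6c, chr19:11518309-11518558 for Ms4a6b, chr19:11407411-11407660 for Ms4a4c and chr19:11443308-11443557 for Ms4a4b.
Ms4a6c: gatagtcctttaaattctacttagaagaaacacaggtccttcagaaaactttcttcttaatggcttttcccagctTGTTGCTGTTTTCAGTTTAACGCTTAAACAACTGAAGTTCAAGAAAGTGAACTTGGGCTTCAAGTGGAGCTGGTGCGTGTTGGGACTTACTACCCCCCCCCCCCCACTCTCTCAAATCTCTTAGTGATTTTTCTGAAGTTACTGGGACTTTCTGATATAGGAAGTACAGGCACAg
Ms4a6b: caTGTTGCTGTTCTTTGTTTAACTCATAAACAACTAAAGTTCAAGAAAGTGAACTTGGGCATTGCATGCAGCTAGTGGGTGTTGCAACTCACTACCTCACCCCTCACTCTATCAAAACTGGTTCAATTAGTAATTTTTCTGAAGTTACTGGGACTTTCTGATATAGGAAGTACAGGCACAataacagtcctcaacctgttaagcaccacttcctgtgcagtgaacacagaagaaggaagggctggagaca
Ms4a4c: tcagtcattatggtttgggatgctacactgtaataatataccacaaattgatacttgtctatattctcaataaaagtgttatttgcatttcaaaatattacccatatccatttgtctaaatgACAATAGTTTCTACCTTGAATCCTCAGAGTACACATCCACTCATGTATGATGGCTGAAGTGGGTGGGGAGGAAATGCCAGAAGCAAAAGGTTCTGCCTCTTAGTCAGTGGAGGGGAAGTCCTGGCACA
Ms4a4b: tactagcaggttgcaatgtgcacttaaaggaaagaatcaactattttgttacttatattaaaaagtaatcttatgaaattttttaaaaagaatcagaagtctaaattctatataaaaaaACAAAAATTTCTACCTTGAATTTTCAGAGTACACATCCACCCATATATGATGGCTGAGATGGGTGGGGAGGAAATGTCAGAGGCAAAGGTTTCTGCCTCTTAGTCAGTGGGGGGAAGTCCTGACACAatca
Promoters of 7 of the 8 members were matched, all but Ms4a6d, with 2 for Ms4a7. On either strand, GAGGAA, a core of the sites of the myeloid factor PU.1, was found in 23.3% of all 32851 promoters of this length and in those of Ms4a4c, 61 to 56 bases before the start, and Ms4a4b, 64 to 59 bases before it. AGGAAGT, a core for ETS factors that can overlap the first motif, was found in 7.7% of all promoters and in those of Ms4a6c and Ms4a6b. In Ms4a6c it lies 17 to 11 bases before the start, and in Ms4a6b there is 1 match on the plus strand, 86 to 80 bases before the start, and 1 on the minus strand, 43 to 37 bases before it. AAAGGTCA, the site bound by NR4A factors, was in 1.3% of promoters and in 0 of the 8 promoters of members. A match describes letters only.

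After the deposited normalisation, which sets the arrays to a common distribution, array medians were 6.12 to 6.19 and between 8615 and 8865 genes lay above background on each, which says nothing of RNA quality. Correlations between arrays were 0.9935 to 0.9963 within groups against 0.9714 to 0.9776 between subsets. Between bead states of the same subset they were 0.9894 to 0.9956, which overlaps the range within groups. The subset labels were checked with lists of markers. The 8 nonclassical markers averaged 11.76 to 11.88 in Gr1lo with beads, 11.68 to 11.87 in Gr1lo without, 8.97 to 9.05 in Gr1hi with beads and 8.68 to 8.78 in Gr1hi without. The 5 measured classical markers averaged 8.03 to 8.21 in Gr1lo with beads, 9.97 to 10.42 in Gr1lo without, 12.32 to 12.35 in Gr1hi with beads and 12.66 to 12.71 in Gr1hi without. The Gr1lo cells without beads thus carried more classical monocyte transcripts than those with beads. In sorted but mixed RNA, fewer cells of a type and less RNA per cell cannot be told apart. Spiked poly-A control RNAs were brighter on arrays with beads than on those without, with means of 10.45 ± 0.01 against 8.98 ± 0.41 in Gr1lo and 9.65 ± 0.28 against 7.93 ± 0.26 in Gr1hi (SD, n = 2 each). Their part in the bead differences was not tested.

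The first question was how the members differ between the subsets. In the absence of beads 5 of the 8, Ms4a4b, Ms4a4c, Ms4a6b, Ms4a6d and Ms4a7, were lower in Gr1lo than in Gr1hi cells, by 0.42 to 1.47 on the log2 scale, and 0 were higher. Over all genes 13.6% were lower and 10% were higher at the same threshold, an adjusted p under 0.05 in limma, and of genes above background 20.9% were lower. The members' median difference was -0.85, against -0.07 over all genes. With beads 5 of the 8 were again lower in Gr1lo, Ms4a4b, Ms4a4c, Ms4a6d, Ms4a7 and Ms4a8a, and 0 were higher, against 14.6% lower and 11.8% higher over all genes, and, for lower calls, 24.3% of genes above background. There the median was -0.88, against -0.03 over all genes. The members were named with such results in view, so these counts describe the list and are no test of it.

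**Figure D1:**
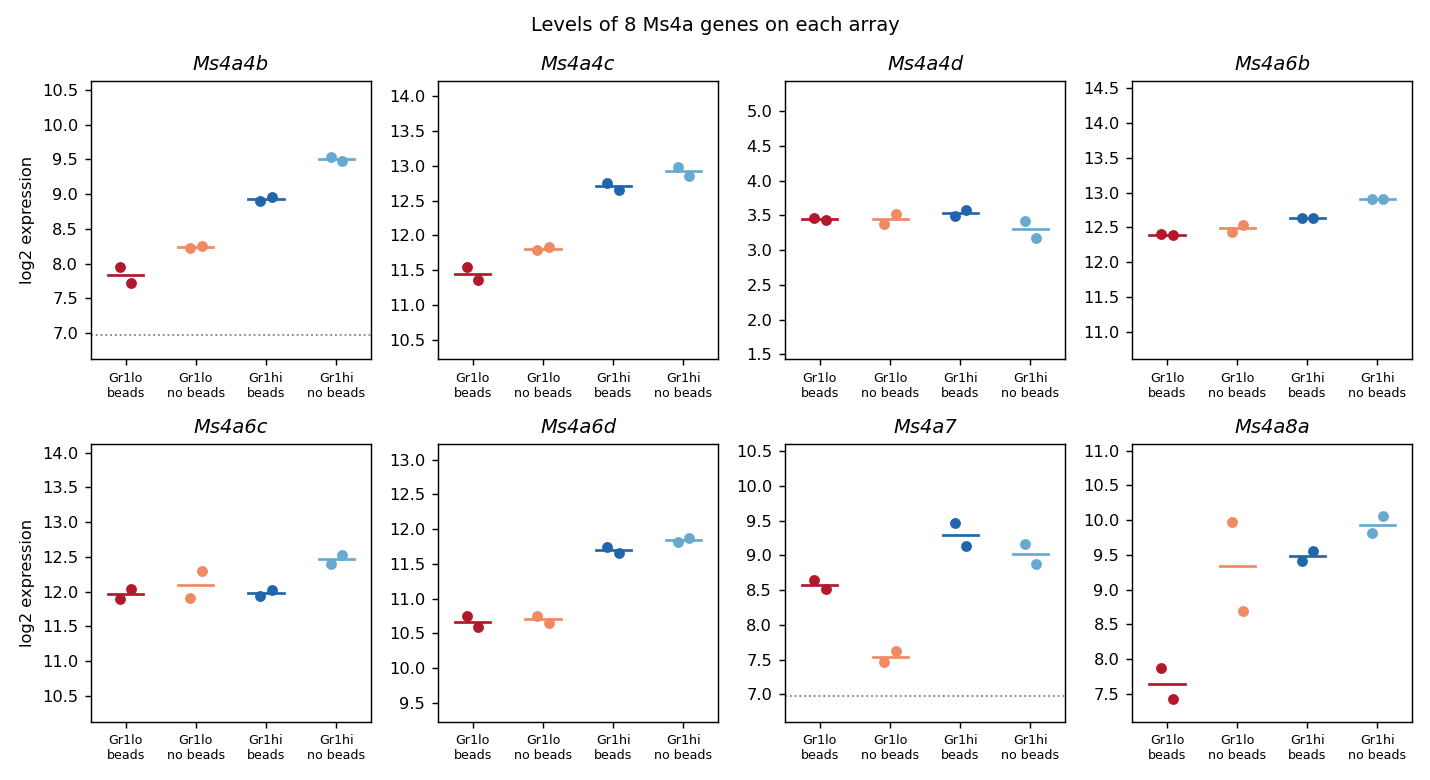
Log2 expression (y axis) of the 8 Ms4a genes on each array, in 4 groups along the x axis. Points are arrays, bars are means of 2, every panel spans the same number of log2 units, and the dotted line, where it falls inside a panel, is the background level of 6.98. Ms4a4b, Ms4a4c and Ms4a6d are lower on all Gr1lo arrays than on all Gr1hi arrays, and the Gr1lo arrays without beads lie lowest for Ms4a7.

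Ms4a4b is known as a T cell protein in mice, where it associates with the receptor GITR. Its levels were 7.95 and 7.72 in Gr1lo with beads, 8.23 and 8.26 in Gr1lo without beads, 8.90 and 8.96 in Gr1hi with beads, and 9.53 and 9.47 in Gr1hi without beads (log2). The 4 groups did not overlap and followed one order, lowest in Gr1lo cells with beads and highest in Gr1hi cells without. The Gr1lo minus Gr1hi difference was -1.26 ± 0.10 without beads (SE; adjusted p = 5.62e-05) and -1.09 ± 0.10 with beads (adjusted p = 9.47e-05). A second probe set of Ms4a4b, below background, gave -0.11 without beads and -0.16 with them, neither called. The T cell list, of which 7 of 9 genes were measured, averaged 6.32 to 6.41, 6.31 to 6.38, 6.40 to 6.49 and 6.31 to 6.35 in the same group order. Its ranges lay close together in all groups, and Cd3d, Cd3g, Cd247, Cd4 and Il7r were below background in each. Cd3e was above background in every group and Cd8a in all but Gr1lo without beads. Cd3e was called lower in Gr1lo with beads (-0.33, adjusted p = 0.0295), the direction of Ms4a4b, and was at -0.08 (adjusted p = 0.569) without beads. Cd3g was called higher in Gr1lo, by 0.32 without beads and 0.49 with them, and Cd8a was at -0.11 and -0.13, not called. The part of T cells in the level of Ms4a4b was not tested.

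Ms4a4c, a close relative of Ms4a4b, had levels of 11.54 and 11.36 in Gr1lo with beads, 11.79 and 11.83 in Gr1lo without, 12.76 and 12.65 in Gr1hi with beads, and 12.98 and 12.86 in Gr1hi without. The groups stood in the same order as for Ms4a4b, again without overlap. Gr1lo was lower than Gr1hi by -1.11 ± 0.10 without beads (adjusted p = 1.23e-04) and by -1.26 ± 0.10 with beads (adjusted p = 4.61e-05). A second probe set of the gene gave differences of -0.91 and -1.04, both called. Both probe sets have a suffix, _x_at or _s_at, that the manufacturer gives to probes that can match more than 1 transcript, so part of the signal may come from relatives; this was not tested. After each gene was centred on its own mean, Ms4a4b and Ms4a4c differed by a root mean square of 0.14 over the 8 arrays.

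Ms4a4d, the third of the Ms4a4 genes on the list, had levels of 3.47 and 3.44 in Gr1lo with beads, 3.37 and 3.52 in Gr1lo without, 3.49 and 3.58 in Gr1hi with beads, and 3.42 and 3.18 in Gr1hi without. All values were far below background and the groups lay close together. The subset differences were 0.14 without beads (adjusted p = 0.382) and -0.08 with beads (adjusted p = 0.644), from 1 probe set. Its RNA was not detectable above background on these arrays.

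Ms4a6d, the partner of VSIG4 in mouse macrophages, had levels of 10.75 and 10.59 in Gr1lo with beads, 10.75 and 10.65 in Gr1lo without, 11.75 and 11.65 in Gr1hi with beads, and 11.82 and 11.87 in Gr1hi without. The subsets were set apart by about 1 log2 unit, whereas the 2 Gr1lo groups overlapped. The difference was -1.15 ± 0.09 without beads (adjusted p = 7.49e-05) and -1.03 ± 0.09 with beads (adjusted p = 1.00e-04). A second probe set above background gave -1.15 and -1.18, and the third was below background. The probe set that gave the gene's level has the suffix _s_at, as for Ms4a4c, and the second has not. The part of relatives in the signal was not tested. The centred profile of Ms4a6d lay within a root mean square of 0.14 of that of Ms4a4c.

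Ms4a6b, whose promoter resembles that of Ms4a6c, had levels of 12.40 and 12.39 in Gr1lo with beads, 12.44 and 12.54 in Gr1lo without, 12.63 and 12.63 in Gr1hi with beads, and 12.91 and 12.91 in Gr1hi without. The order was that of Ms4a4b and Ms4a4c, with smaller steps. The subset difference was -0.42 ± 0.08 without beads (adjusted p = 0.00603). With beads it was -0.23 ± 0.08 and did not pass (adjusted p = 0.0617). A second probe set, also above background, gave -0.17 (adjusted p = 0.247) and -0.11, neither called.

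Ms4a6c, the neighbour of Ms4a6b, had levels of 11.89 and 12.04 in Gr1lo with beads, 11.91 and 12.29 in Gr1lo without, 11.94 and 12.02 in Gr1hi with beads, and 12.40 and 12.53 in Gr1hi without. Gr1hi cells without beads stood above the other 3 groups, which overlapped one another. Neither subset difference passed, at -0.37 ± 0.13 without beads (adjusted p = 0.0774) and -0.02 ± 0.13 with beads (95% interval -0.32 to 0.28, adjusted p = 0.941). The probe sets of this gene disagreed. The dimmer one had levels of 7.91 and 7.88 in Gr1lo with beads against 7.36 and 7.35 in Gr1hi with beads, a difference of 0.54 ± 0.09 with an adjusted p of 0.00194 over all probe sets, and 0.12 (adjusted p = 0.373) without beads. No direction between the subsets is given for Ms4a6c.

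Ms4a7 marks macrophages, and in the mouse brain it is used for macrophages derived from blood. Its levels were 8.64 and 8.51 in Gr1lo with beads, 7.46 and 7.62 in Gr1lo without, 9.46 and 9.13 in Gr1hi with beads, and 9.16 and 8.87 in Gr1hi without. Gr1lo cells without beads stood lowest, Gr1lo cells with beads next, and the 2 Gr1hi groups overlapped above them. The subset difference was -1.47 ± 0.14 without beads (adjusted p = 1.86e-04) and -0.72 ± 0.14 with beads (adjusted p = 0.00545). The gene's other probe set was below background.

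Ms4a8a has been described in alternatively activated and tumour macrophages of mice. Its levels were 7.88 and 7.42 in Gr1lo with beads, 9.98 and 8.69 in Gr1lo without, 9.41 and 9.55 in Gr1hi with beads, and 9.81 and 10.06 in Gr1hi without. Gr1lo cells with beads stood apart below all other arrays, and the Gr1lo arrays without beads lay far apart, one among the Gr1hi arrays and one below them. With beads the Gr1lo minus Gr1hi difference was -1.83 ± 0.35 (adjusted p = 0.00485), and the adjusted p was 0.0509 with trend and robust moderation. Without beads it was -0.60 ± 0.35 (adjusted p = 0.267), and this value rests on single arrays: it was 0.05 without the second Gr1lo array lacking beads and -1.24 (adjusted p = 0.00319) without the first. The same pair of arrays differed in markers of tissue macrophages, whose 8 genes averaged 9.35 on the first and 7.69 on the second. The complement gene C1qa was at 11.37 on the first and 8.16 on the second, and C1qb, C1qc, Mertk and Cd163 were also higher on the first. The rest of the list lay close together, with Adgre1 at 11.48 and 11.38, Spic at 7.73 and 7.79, and Vcam1 at 6.14 and 6.31. The 5 measured classical monocyte markers also averaged higher on the first of these arrays, at 10.42 against 9.97. Ccr2, F13a1, Mmp8 and Vcan were higher on the first, and Chil3 was at 13.18 and 13.26. The part of either list in the result was not tested.

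**Figure D2:**
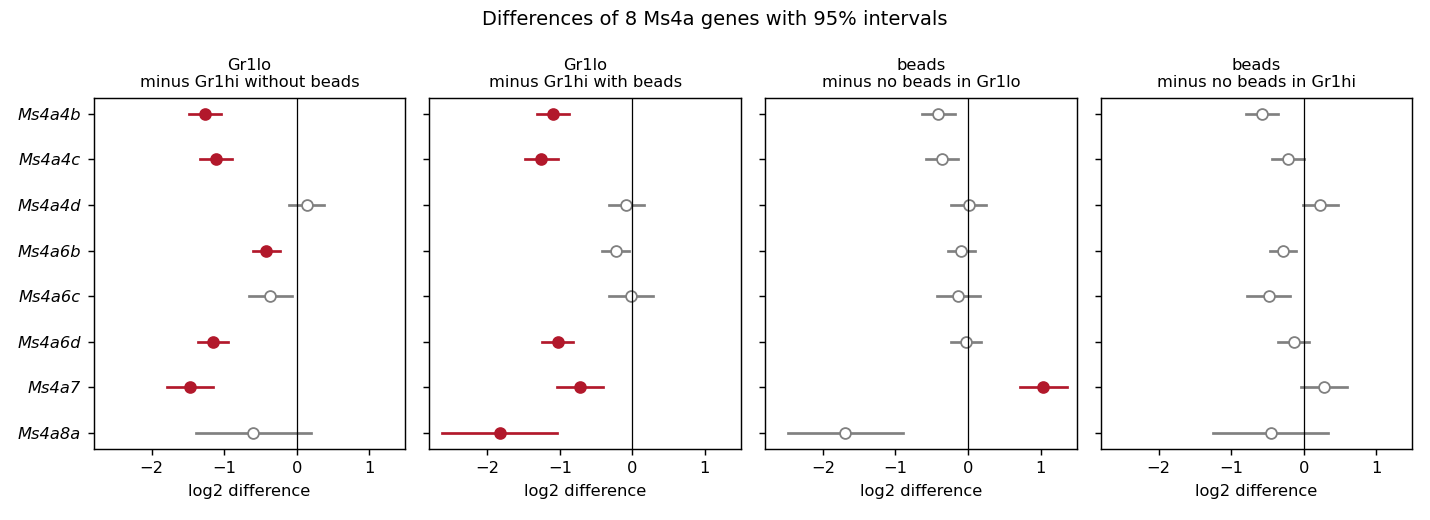
Log2 differences (x axis) of the 8 genes (y axis) with their 95% intervals, from left to right Gr1lo minus Gr1hi without beads, the same with beads, beads minus no beads in Gr1lo, and in Gr1hi. Filled red points passed an adjusted p of 0.05 and open grey points did not. Of 8 genes, 5 are red on the left of 0 in each subset comparison, and Ms4a7 in Gr1lo cells is the one red point in the bead comparisons.

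The second question was how the members differ between cells that hold beads and cells of the same subset that do not. In Gr1lo cells 1 of the 8, Ms4a7, was called, and it was higher with beads. Over all genes 0.0824% were higher and 0.225% changed either way. The difference was 1.04 ± 0.14 (95% interval 0.72 to 1.36, adjusted p = 0.0332), a fold of 2.05, and both arrays with beads were above both without. It ranked 31 among all genes by p in this comparison. The call was lost when either array with beads or the first without was left out (adjusted p = 0.136 to 0.161), with differences of 0.95 to 1.10. It was also lost when the 4 Gr1lo arrays were fitted alone (adjusted p = 0.0639), and with the mean of both probe sets of the gene, 1 of them below background, where the difference was 0.55 (adjusted p = 0.0576).

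Ms4a8a went the other way in value in Gr1lo cells, at -1.69 ± 0.35 (95% interval -2.48 to -0.89), and did not pass over all genes (adjusted p = 0.135). Without the second Gr1lo array lacking beads the difference was -2.33 (adjusted p = 5.32e-04), and without the first it was -1.04 (adjusted p = 0.159). The other members differed by -0.41 for Ms4a4b, -0.36 for Ms4a4c and -0.14 to 0.01 for the rest, with adjusted p of at least 0.172. Groups did not overlap for Ms4a4b, Ms4a4c, Ms4a6b and Ms4a8a, lower with beads, which is 4 of 8 where 19.4% of all genes did so, and for Ms4a7, higher, where 23.3% did so. The median over members was -0.12, against 0.02 over all genes.

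Classical monocyte markers moved with this comparison. Of the 5 measured, Chil3, F13a1, Mmp8 and Vcan were lower in Gr1lo cells with beads than without, and the list's median difference was -2.20. The tissue macrophage list averaged 8.77 to 9.05 with beads and 7.69 to 9.35 without, and Spic, a factor of red pulp macrophages, was called higher with beads in each subset. Of the 5 measured dendritic cell markers Cd209a was called, at 6.84 and 6.69 with beads against 10.06 and 9.73 without (-3.13). Flt3 was at -0.55 and Zbtb46, Xcr1 and Siglech at 0.07 to 0.14, so the list's median was 0.07. Its average was 6.47 to 6.59 with beads and 7.19 to 7.22 without. The NK cell list averaged 6.20 to 6.24 with beads and 6.85 to 6.97 without. Of its 5 measured genes Klrd1 was called lower (-2.40, adjusted p = 7.68e-05) and Klrk1 was at -1.01 (adjusted p = 0.0781). Ncr1, Gzma and Prf1 were at 0.09, 0.01 and -0.13, so the list's median was -0.13. The part of these cells in the values of Ms4a7 and Ms4a8a was not tested.

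In Gr1hi cells 0 of the 8 members were called between cells with and without beads in limma, where 0.247% of all genes were, and 3 had an unadjusted p under 0.05, as did 9.93% of all genes. These were Ms4a4b at -0.57 ± 0.10 (95% interval -0.79 to -0.35, adjusted p = 0.0797), Ms4a6c at -0.48 ± 0.13 (adjusted p = 0.269) and Ms4a6b at -0.28 ± 0.08 (adjusted p = 0.297). Arrays with beads were below those without, with no overlap, for 6 of the 8 members, against 25% of all genes, and above them for Ms4a4d, against 19.2%. The exception was Ms4a7, at 0.28 ± 0.14 with overlapping groups. The members' median was -0.25, against -0.02 over all genes.

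Markers of other cells moved with the Gr1hi comparison too. Of the 5 mast cell and basophil markers Cpa3, Mcpt8 and Ms4a2 were called lower with beads, and the median was -0.80. The list averaged 5.64 to 5.66 with beads and 6.34 to 6.58 without, and each of its 5 genes had a mean over all arrays below background. In Gr1hi without beads, however, Gata2 was above background, with a mean of 7.26. The 8 tissue macrophage markers averaged 8.41 to 8.59 with beads and 7.59 to 7.77 without, with a median of 1.19 and Spic called higher. The 5 classical markers were all negative, with a median of -0.38 and none called. The part of these in the members' values was not tested. The same arrays without beads serve the subset comparison too, so the values of the comparisons are not independent.

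Whether beads went with a different change in the 2 subsets was tested by the difference of the bead differences, Gr1lo minus Gr1hi. It passed for 0 of 8 members, where it did for 0.044% of all genes, and 2 had an unadjusted p under 0.05, as did 7.84% of all genes. These were Ms4a8a at -1.24 ± 0.49 (unadjusted p = 0.035, adjusted p = 0.617) and Ms4a7 at 0.75 ± 0.20 (unadjusted p = 0.00467, adjusted p = 0.513), and the other 6 lay between -0.22 and 0.35. The rise of Ms4a7 with beads in Gr1lo cells is therefore not shown to be particular to them.

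**Figure D3:**
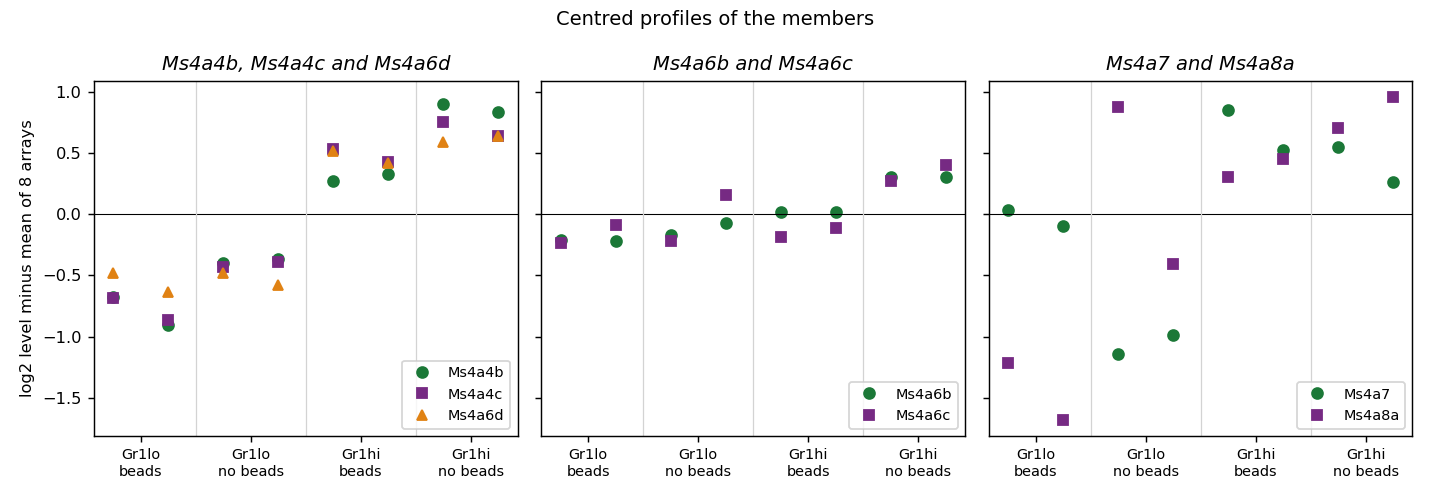
Log2 level of each member minus its own mean over the 8 arrays (y axis), with the arrays in 4 groups along the x axis and 1 symbol per array. Ms4a4b, Ms4a4c and Ms4a6d (left) keep close to one another, and Ms4a6b and Ms4a6c (middle) move little. Ms4a7 and Ms4a8a (right) are far apart on the Gr1lo arrays with beads and the first without, and less so on the second without. Ms4a4d, below background, is left out.

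Among themselves the members fell into patterns that differed in size. The closest centred profiles were Ms4a6b and Ms4a6c, with a root mean square difference of 0.13, followed by Ms4a4b and Ms4a4c and by Ms4a4c and Ms4a6d, at 0.14 each. This measure is small for any genes that vary little: Ms4a4d, below background throughout, lay 0.27 from Ms4a6b, and the probe sets of Ms4a6c disagree, so the value for Ms4a6b and Ms4a6c shows no shared pattern. The most distant were Ms4a7 and Ms4a8a, at 1.08. The same measure was used to find the genes outside the family that were most like each member whose group means spanned at least 1 log2 unit, among 9031 candidates. For Ms4a4b they were Cep19 (0.08), Flot2 (0.14) and Smim4 (0.14), and for Ms4a4c they were Sidt2 (0.06), Pnp (0.08) and Plec (0.10). Ms4a6d was closest to Ddost (0.05), Bphl (0.07) and Ccdc34 (0.07). Ms4a7 had no gene as near, with Gstm1 (0.24), Tmem86a (0.25) and Osbpl3 (0.28), and likewise Ms4a8a, with Serpinb1a (0.27), Rgs18 (0.28) and Bst1 (0.30). With 8 arrays and so many candidates, near matches are to be found for a plain step between subsets, and the list is a description.

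The rest of the family showed where the members differ from it. Of 16 other genes listed, which include the related Tmem176a and Tmem176b, 11 were measured and 3 were above background, Ms4a15, Tmem176a and Tmem176b. Without beads Tmem176a and Tmem176b, which are known from dendritic cells and other myeloid cells, were higher in Gr1lo than in Gr1hi, by 1.38 ± 0.29 (adjusted p = 0.00895) and 1.60 ± 0.29 (adjusted p = 0.00473), opposite in sign to every called member. Tmem176b was at 11.64 and 11.06 in Gr1lo with beads, 12.32 and 11.42 in Gr1lo without, 10.70 and 10.43 in Gr1hi with beads, and 10.44 and 10.10 in Gr1hi without. Gr1lo lay above Gr1hi throughout. The Gr1lo arrays without beads lay apart for Tmem176a too, at 10.4 on the first and 9.31 on the second. As given for Ms4a8a, the first also had the higher averages of tissue macrophage and classical markers. The part of these lists in the Tmem176 values was not tested. With beads neither difference passed, at 0.76 (adjusted p = 0.0899) and 0.79 (adjusted p = 0.0827). Ms4a2 was lower in Gr1lo without beads by -0.98 (adjusted p = 1.58e-04) but below background in all groups.

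**Figure D4:**
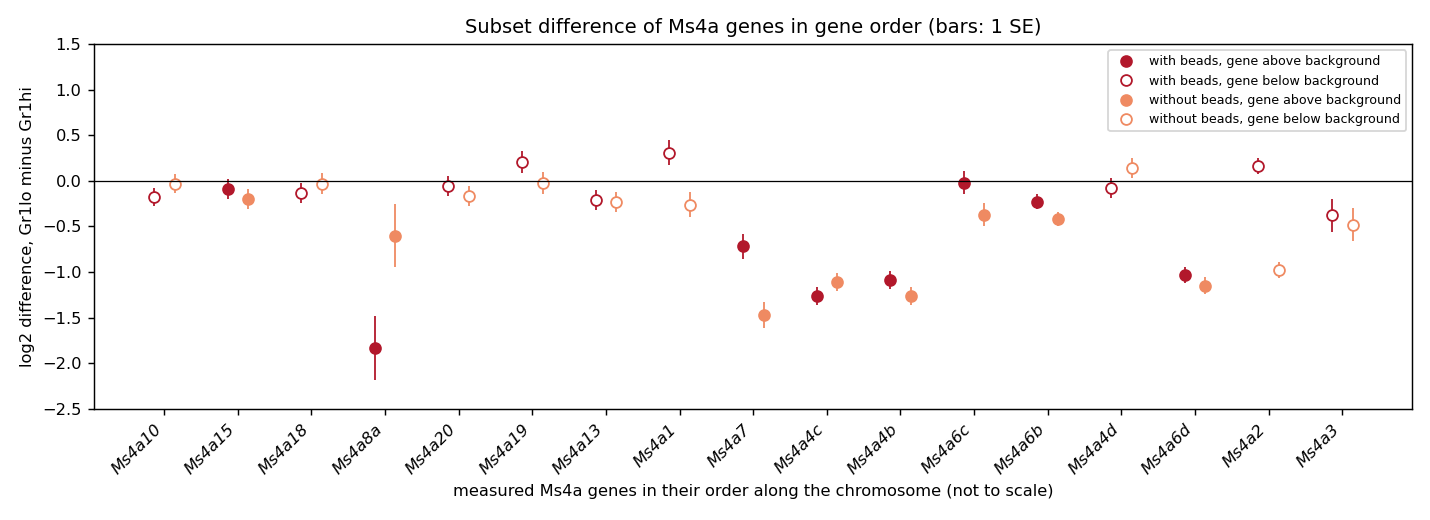
Gr1lo minus Gr1hi log2 difference (y axis) of the 17 measured Ms4a genes in their order along mouse chromosome 19 (x axis, not to scale), with beads (dark) and without (light); bars are 1 SE and open points are genes with a mean below background. In the right part of the row Ms4a4c, Ms4a4b and Ms4a6d lie under -1 in both bead states and Ms4a7 without beads; Ms4a8a with beads lies lowest of all at -1.83.

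The receptors and adaptors that MS4A proteins or TREM2 are known to work with did not follow the members as a group. Of 12 listed, 11 were measured and 7 were above background. Without beads 3 were higher in Gr1lo than in Gr1hi and 2 lower, where 10% and 13.6% of all genes were. The list's median was 0.18, against -0.07 over all genes. With beads 3 were higher and 1 lower, where 11.8% and 14.6% of all genes were. The median there was 0.05, against -0.03. The tetraspanins Cd9 and Cd81 were higher in Gr1lo by 2.94 ± 0.13 and 2.56 ± 0.21 without beads and by 3.03 and 2.79 with them, and Fcer1g, the common gamma chain of Fc receptors, by 0.32 ± 0.08 (adjusted p = 0.0237) and 0.40 (adjusted p = 0.00696). Trem2, a lipid receptor of macrophages, was lower in Gr1lo, with 7.83 and 7.60 in Gr1lo with beads, 8.21 and 7.93 in Gr1lo without, 9.57 and 9.64 in Gr1hi with beads, and 9.60 and 9.62 in Gr1hi without. All 4 Gr1lo arrays lay below all 4 Gr1hi arrays. Its difference was -1.54 ± 0.12 without beads (adjusted p = 5.10e-05) and -1.89 with beads (adjusted p = 1.44e-05). The other gene called lower without beads, Fcer1a (-0.81, adjusted p = 0.00356), was below background in every group. In the bead comparisons 0 of the 11 were called, where 0.225% of all genes were in Gr1lo and 0.247% in Gr1hi. An unadjusted p under 0.05 was found for Cd9, Fcer1a and Trem2 in Gr1lo cells (all genes 13.2%). In Gr1hi cells it was found for Cd9 and Fcer1a (all genes 9.93%). The list's medians were 0.08 in Gr1lo and 0.03 in Gr1hi, against 0.02 and -0.02 over all genes.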

How the data were processed

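The authors deposited log2 expression values of 45101 probe sets on 8 Affymetrix mouse GeneChip arrays, which hybridised amplified, biotin-labelled RNA of sorted monocytes, per the labels' protocols. The values were normalised by RMA and compared with limma, per the submitters' processing notes; no versions are named there. They were used as deposited, and raw scans were not reprocessed.

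Of the probe sets, 34945 had 1 gene symbol and were kept; 932 had several, 9160 had none listed and 64 were controls. By Entrez number 34741 were matched to RefSeq names, and 0 symbols changed. The brightest probe set stood for a gene (18193 genes, 9010 with more than 1). RMA sets arrays to one distribution, so levels are relative within an array, and levels of different probe sets are not compared.

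A model with 4 group means was fitted to all genes and 8 arrays with limma 3.58.1 in R 4.3.3 (lmFit, default eBayes with 4.48 prior and 4 residual degrees of freedom). P-values were two-sided and adjusted by Benjamini-Hochberg over all genes, and a call is an adjusted p under 0.05. The 5 comparisons were beads against no beads in each subset, Gr1lo against Gr1hi at each bead state, and the difference of the bead differences. Only 2 arrays a group limit the precision. SE is the moderated standard error. The procedure was tested on simulated data. The genes named are all members, the partner receptors past the test, other family genes, and the 3 most alike genes of each member that varied by at least 1 log2 unit. Members and lists were chosen with earlier results of these data known. Promoters were aligned locally with Biopython 1.88. Alternatives were genes above background only, the mean of all probe sets, every probe set, the compared arrays alone, trend and robust moderation, median centring, cyclic loess, replicate blocks and leaving out each array.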

Additional observations from a re-analysis of the deposited data

Results flagged for a closer look

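The bead differences of 83 genes were compared between the subsets. These were the members, every listed gene measured, and the genes in and beside the row of Ms4a genes. The 15 that were flagged are no members. For 10 of the 15 both arrays with beads lay on one side of both without in Gr1lo and on the other side in Gr1hi. Over all genes, arrays did not overlap for 23.3% (higher with beads) and 19.4% (lower) in Gr1lo, and for 19.2% and 25% in Gr1hi. The share of all genes on opposite sides was not counted, so the 10 are a description only. The difference of the bead differences (Gr1lo minus Gr1hi, limma) passed for 1 of the 10, Ms4a2, the beta chain of the IgE receptor, at 1.14 ± 0.13 (adjusted p = 0.0347). Its levels were 5.80 and 5.81 in Gr1lo with beads, 5.67 and 5.57 in Gr1lo without, 5.59 and 5.71 in Gr1hi with beads, and 6.66 and 6.54 in Gr1hi without, all below background. The list of mast cell and basophil markers, which holds Ms4a2, Fcer1a, Mcpt8 and Gata2, averaged 6.34 to 6.58 in Gr1hi without beads and at most 5.83 on all other arrays, and its part in these values was not tested. The difference did not pass for Fcer1a (1.19, adjusted p = 0.216), Mcpt8 (1.30, adjusted p = 0.0896) or Gata2 (0.58, adjusted p = 0.528). Nor did it pass for S100a9 of the neutrophil list (2.42, adjusted p = 0.487), which was at 11.19 to 12.44 on the Gr1hi arrays. The B cell genes Ms4a1 (0.57, adjusted p = 0.591) and Pax5 (0.30, adjusted p = 0.623) did not pass. The same held for AW112010 (0.60, adjusted p = 0.421), Gm8369 (-0.30, adjusted p = 0.652) and the adaptor Tyrobp (-0.13, adjusted p = 0.782).

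The difference also passed for 5 marker genes without such opposite arrays. They were the classical monocyte genes F13a1 (-2.71, adjusted p = 0.00443), Vcan (-2.46, adjusted p = 0.00778) and Chil3 (-1.40, adjusted p = 0.00443), the dendritic cell gene Cd209a (-3.21, adjusted p = 0.000646) and the NK cell gene Klrd1 (-2.10, adjusted p = 0.00443).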

How the results depend on the processing

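Of 651 values of members under alternatives, 620 kept their direction and side of the threshold, 6 lost the call, 10 gained one and 15 changed sign. Of the members called lower in Gr1lo, the one loss was Ms4a8a with beads, at an adjusted p of 0.0509 under trend and robust moderation. Of members called between cells with and without beads in Gr1lo, 1 in the report, the count was 0 with the mean of all probe sets, where Ms4a7 was at 0.55 (adjusted p = 0.0576), 0 with the compared arrays alone, and 0 to 2 when each array was left out. In Gr1hi it was 1 under trend and robust moderation (Ms4a4b, adjusted p = 0.0286) in place of 0. The count for the difference of the bead differences was 0 to 1 when each array was left out; the 1 is Ms4a8a, at -1.88 (adjusted p = 0.012) without the second Gr1lo array lacking beads. Ms4a6c gained a call without beads under trend and robust moderation (adjusted p = 0.0454) and without that array (-0.56, adjusted p = 0.0152). Ms4a6b with beads gained one with genes above background only (0.0216) and trend and robust moderation (0.00802).

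Signs changed as follows. In the Gr1lo bead comparison Ms4a4d was at -0.01 with median centring, -0.04 with cyclic loess and -0.06 to 0.08 when each array was left out; Ms4a6b was at 0 with cyclic loess; Ms4a6d at 0.06 with cyclic loess and -0.11 to 0.05 when arrays were left out; and Ms4a6c at -0.33 to 0.05. Between subsets with beads Ms4a6c was at 0.26 with the mean of all probe sets (adjusted p = 0.0467), 0.09 with cyclic loess, and -0.10 to 0.06 when each array was left out. Between subsets without beads Ms4a8a was at -1.24 to 0.05, the higher value without the second Gr1lo array lacking beads. The difference of bead differences of Ms4a6d was 0 with the mean of all probe sets. These causes were not tested.

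The labels do not say that replicate numbers pair arrays. Deviations from group means of same-numbered arrays correlated at 0.60 in Gr1hi, 0.37 in Gr1lo and 0.04 to 0.09 across subsets. With a replicate block within each subset 2 members were called in Gr1lo, Ms4a7 and Ms4a8a (adjusted p = 0.0229), and the block over all arrays called Ms4a6c between subsets without beads (adjusted p = 0.0278). Calls over all genes moved more: 45 in the Gr1hi bead comparison became 121 under trend and robust moderation, 102 with the block within subsets and 0 to 58 with 1 array left out; 41 in Gr1lo became 127, 106 and 17 to 354, and 12 with the compared arrays alone; and 8 for the difference became 17 under trend and robust moderation and 1 to 167 with 1 array left out.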

Other observations

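A predicted gene between Ms4a6c and Ms4a6b, Gm8369, had a subset difference of opposite sign to those of the called members. It was chosen for its position after its values were seen, as 1 of 3 measured among 11 genes of other names inside the row of Ms4a genes. Its levels were 6.42 and 6.64 in Gr1lo with beads, 6.65 and 6.80 in Gr1lo without, 4.61 and 4.68 in Gr1hi with beads, and 4.52 and 4.55 in Gr1hi without, all under the background level of 6.98. The Gr1lo minus Gr1hi difference was 2.19 ± 0.10 without beads (adjusted p = 3.95e-06) and 1.88 with beads (adjusted p = 7.54e-06), with all Gr1lo arrays above all Gr1hi arrays. Since the values lie under the background level, the size of this difference is not set against those of the members. The annotation used here gives it no role.

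AW112010, a transcript known from interferon responses, lies in the same row. It was higher in Gr1lo than in Gr1hi with beads, by 0.66 ± 0.09 (adjusted p = 6.49e-04), and not called without beads at 0.07 (adjusted p = 0.637). Ccdc86, at the edge of the row, was lower in Gr1lo by -0.96 without beads (adjusted p = 0.00602) and -0.88 with beads (adjusted p = 0.008).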
